A study of Rattus norvegicus with 7 samples.

Results

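TIMP-1, TIMP-2 and alpha-2-macroglobulin are secreted protease inhibitors, and each was represented by 1 clone (RGIAQ65, RNABV95 and RGIAO94) among the 6240 features of a rat cDNA array. The 3 clones were chosen by clone ID and gave a value on all 7 arrays. The arrays came from male Sprague Dawley rats with a cerebral cortical contusion made by weight drop, killed at 1 day post injury (dpi; 3 animals) or 4 dpi (4 animals), and the labels name no genotype and no drug. On each array, total RNA from the ipsilateral, injured cortex of 1 animal was hybridised against RNA from the contralateral, uninjured cortex of that animal, and age was not given in the sources used here. The value per clone was the log2 ratio of injured to uninjured cortex, so 1 stands for a doubling and 0 for equal signal. Ratios do not give levels, so the labelled tissue could not be checked by its defining markers. Sham-operated animals were not on these arrays, and the contralateral cortex, which belongs to the same operated animal, was the reference for every value.

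Matrix metalloproteinases cut the proteins of the extracellular matrix and the basement membrane of vessels, and the TIMPs bind to their active sites. TIMP-1 is the member of the family known for strong induction by cytokines and growth factors, whereas TIMP-2 is known as a more steadily expressed inhibitor that also takes part in the activation of MMP-2. Alpha-2-macroglobulin is a large plasma protein that traps proteases of all classes, and in the rat it is an acute phase protein of the liver that is also made by astrocytes.

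The start regions of the TIMP genes are shown because the clones of this inhibitor family gave responses of different size. In RefSeq (GRCr8 assembly), Timp1 spans chrX:3766509-3772578, inside the span of the synapsin gene Syn1 (chrX:3725745-3780940), and Timp2 spans chr10:104041604-104089214. The gene of alpha-2-macroglobulin, A2m, spans chr4:156570163-156619870. Both promoters are on the minus strand and are given 5′ to 3′ over the 250 bases before the start in the promoter table, chrX:3771123-3771372 for Timp1, which lies within the gene's own span, and chr10:104089215-104089464 for Timp2. Capitals mark matches to TGAGTAA (a variant of the AP-1 motif), CAGGAAG (an Ets motif) and the GC box GGGCGG, each searched on both strands and not overlapping each other.
Timp1: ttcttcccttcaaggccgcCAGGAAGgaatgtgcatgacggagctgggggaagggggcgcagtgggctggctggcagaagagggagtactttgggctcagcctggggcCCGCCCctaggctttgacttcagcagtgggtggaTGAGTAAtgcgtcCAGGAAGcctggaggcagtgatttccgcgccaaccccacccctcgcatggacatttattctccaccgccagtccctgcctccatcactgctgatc
Timp2: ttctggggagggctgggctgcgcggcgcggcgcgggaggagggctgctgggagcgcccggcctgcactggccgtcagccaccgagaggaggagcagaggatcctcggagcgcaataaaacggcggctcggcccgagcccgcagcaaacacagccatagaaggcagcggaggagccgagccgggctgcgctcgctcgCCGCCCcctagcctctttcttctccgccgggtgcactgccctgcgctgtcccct

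The Timp1 window held TGAGTAA at 108 to 102 bases before the start, CAGGAAG at 231 to 225 and at 95 to 89 bases, and a GC box at 142 to 137 bases. The Timp2 window held 1 GC box, at 54 to 49 bases. Neither window held the AP-1 motif TGANTCA or the STAT motif TTCNNNGAA. Of 33469 rat promoters of the same length, 2.38% held TGAGTAA, 10.2% CAGGAAG, 30.5% GGGCGG, 6.34% TGANTCA and 7.67% TTCNNNGAA. The GC content was 61.2% for Timp1 and 72.0% for Timp2, against a median of 51.2% over all promoters. These motifs were chosen after the sequences had been seen, and a match is a description of the letters, not of a bound site.

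The arrays gave a value for 2332 to 5208 features, and every array had a median log2 ratio within 0.01 of 0. Pearson correlations between arrays across features lay between 0.01 and 0.78. The lowest value was between replicate 1 of 4 dpi and replicate 2 of 1 dpi, which differ in both time point and dye. With replicates 2, 3 and 4 of 4 dpi, replicate 1 of 4 dpi correlated at 0.49, 0.52 and 0.74. The TIMP-1 value of that array is described below. Injured cortex was labelled with Cy5 on replicates 1 and 2 and with Cy3 on replicate 3 of 1 dpi, and with Cy3 on replicates 1 and 4 and with Cy5 on replicates 2 and 3 of 4 dpi.

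TIMP-1 was among the most strongly upregulated features at 1 dpi. Its log2 ratio was 3.43 on replicate 1, 3.25 on replicate 2 and 3.47 on replicate 3. The values lay close together in both dyes, and correspond to 10.8, 9.48 and 11.1 times more signal from the injured side. The clone was placed 4 of 3993, 4 of 5208 and 3 of 5041 features on these arrays by its ratio. Its mean was 3.38 ± 0.12 (SD, n = 3; 95% confidence interval 3.11 to 3.65), a 10.4-fold difference, with an adjusted p of 1.76e-07 by limma with Benjamini-Hochberg adjustment over 4952 features.

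At 4 dpi TIMP-1 was high on 3 arrays and not on the other. The log2 ratio was -0.51 on replicate 1, 2.31 on replicate 2, 2.26 on replicate 3 and 2.65 on replicate 4. Replicates 2 to 4 correspond to 4.95-, 4.78- and 6.26-fold more signal on the injured side, and replicate 1 to 0.703 times the uninjured signal. Each animal was on 1 array and spot intensities were not used here, so a difference of the animal and a fault of the TIMP-1 spot cannot be told apart for replicate 1, which also holds for each mean and order below that includes it. The clone held places 11 of 5082, 10 of 2332 and 8 of 3270 on replicates 2 to 4, and place 3975 of 4133 on replicate 1. The mean was 1.68 ± 1.47 (SD, n = 4; 95% confidence interval 0.71 to 2.64), and its adjusted p of 0.0324 (limma, 3191 features) missed the limit of 0.02 set for a single time point. Without replicate 1 the mean was 2.40 and passed (limma adjusted p = 8.78e-06), and by one-class SAM, the test named in the methods, all 4 arrays gave a q of 0.0137, which also passed. With robust eBayes the limma adjusted p was 0.203, and without replicate 2, 3 or 4 it was 0.160, 0.105 and 0.0555.

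**Figure D1:**
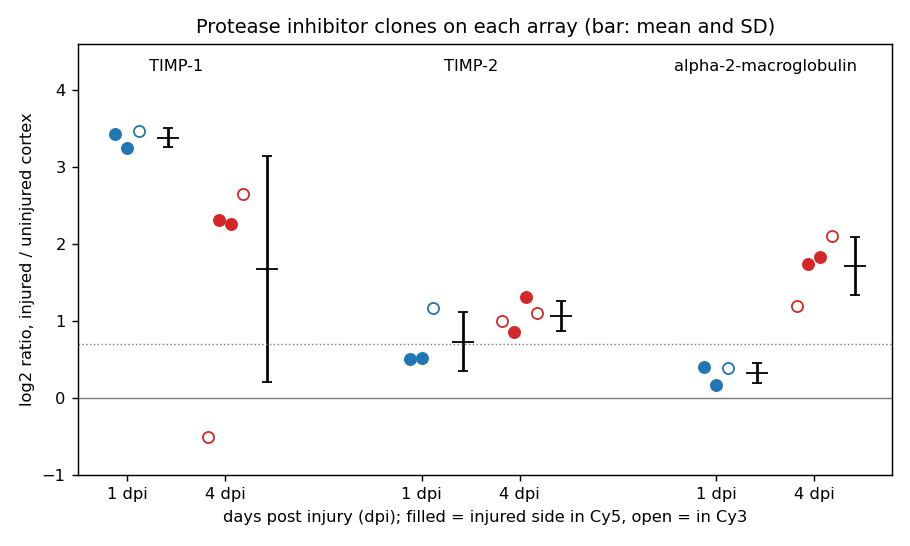
Log2 ratio of injured to uninjured cortex (y axis) for the 3 inhibitor clones at 1 dpi (blue, 3 animals) and 4 dpi (red, 4 animals), 1 point per array, filled where the injured side carried Cy5 and open where it carried Cy3; black bars give mean and SD, and the dotted line is the limit of 0.7. TIMP-1 lies between 3.25 and 3.47 at 1 dpi and has 1 low array at 4 dpi, TIMP-2 is positive on every array, and alpha-2-macroglobulin lies between 1.20 and 2.10 at 4 dpi, above all its values at 1 dpi.

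TIMP-2 had a smaller mean ratio than TIMP-1 at both times, although on replicate 1 of 4 dpi it was the higher of the pair. At 1 dpi the log2 ratio was 0.50 on replicate 1, 0.51 on replicate 2 and 1.17 on replicate 3. The array with Cy3 on the injured side was the high one, and the other two were close to each other. The mean was 0.73 ± 0.38 (SD, n = 3; 95% confidence interval 0.39 to 1.07), a 1.66-fold difference that was called upregulated (limma adjusted p = 0.0101). The call was lost without replicate 2 (limma adjusted p = 0.0244) and without replicate 3, where the mean was 0.51 (limma adjusted p = 0.0208), and it held without replicate 1, where the mean was 0.84 (limma adjusted p = 0.00024).

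At 4 dpi the log2 ratio of TIMP-2 was 1.00 on replicate 1, 0.85 on replicate 2, 1.31 on replicate 3 and 1.10 on replicate 4. The array on which TIMP-1 was low was within the range of the others for TIMP-2. The mean was 1.07 ± 0.19 (SD, n = 4; 95% confidence interval 0.84 to 1.29), a 2.10-fold difference and an upregulated call (limma adjusted p = 0.000276).

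Alpha-2-macroglobulin was close to equal between the sides at 1 dpi. Its log2 ratio was 0.40 on replicate 1, 0.17 on replicate 2 and 0.39 on replicate 3. All 3 values were above 0 and below the limit of 0.7. The mean was 0.32 ± 0.13 (SD, n = 3; 95% confidence interval 0.05 to 0.59), a 1.25-fold difference that was not called (limma adjusted p = 0.111).

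At 4 dpi alpha-2-macroglobulin was upregulated, with log2 ratios of 1.20 on replicate 1, 1.74 on replicate 2, 1.83 on replicate 3 and 2.10 on replicate 4. Replicate 1 was again the lowest array, but here it was above every array of 1 dpi. The mean was 1.72 ± 0.38 (SD, n = 4; 95% confidence interval 1.41 to 2.02), a 3.29-fold difference (limma adjusted p = 0.00013), which placed the clone 15 of 3191 features by mean. At each time point 2 of the 3 inhibitors were thus called upregulated, TIMP-1 and TIMP-2 at 1 dpi, and TIMP-2 and alpha-2-macroglobulin at 4 dpi. Of all features tested, upregulated calls made up 3.90% at 1 dpi and 2.63% at 4 dpi.

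The timing was tested with a single limma model over the 7 arrays, in which positive differences are higher at 4 dpi. Alpha-2-macroglobulin was higher at 4 dpi by 1.40 on the log2 scale (95% confidence interval 0.98 to 1.81, adjusted p = 0.00258), and all 4 arrays of 4 dpi lay above all 3 of 1 dpi. Among the 2190 features with a value on all 7 arrays, 10.2% had all arrays of 4 dpi above those of 1 dpi and 7.26% had them all below. At the limit of 0.05, 3.48% of 3188 features were called higher at 4 dpi and 1.51% lower. The difference of alpha-2-macroglobulin was 1.50 within the Cy5 arrays and 1.26 within the Cy3 arrays, where 1 dpi is a single array. Without replicate 1 of 4 dpi it was 1.57.

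The difference for TIMP-1 was -1.71 (95% confidence interval -2.93 to -0.48), and it did not pass (limma adjusted p = 0.114; exact permutation test over the 35 splits of the arrays, two-sided, p = 0.0571). Every array of 4 dpi was nevertheless below every array of 1 dpi, as for 7.26% of the features with a value on all 7 arrays. Without replicate 1 of 4 dpi the difference was smaller, at -0.98, and passed (limma adjusted p = 0.00503). It was -1.05 within the Cy5 arrays, which do not include replicate 1 of 4 dpi, and -2.40 within the Cy3 arrays.

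For TIMP-2 the difference was 0.34 (95% confidence interval -0.06 to 0.74, limma adjusted p = 0.346; exact permutation p = 0.2), and the arrays of the time points overlapped. The interval includes no difference and also a rise of up to 0.74. Within the Cy5 arrays it was 0.58 and within the Cy3 arrays -0.12, where 1 dpi is replicate 3 alone, so dye and animal cannot be told apart there. With a dye term the difference was 0.30 (limma adjusted p = 0.370). Leaving out 1 array gave 0.22 to 0.56, the highest without replicate 3 of 1 dpi, and it passed in no case. The differences of TIMP-1 and alpha-2-macroglobulin kept their sign in both dyes.

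**Figure D2:**
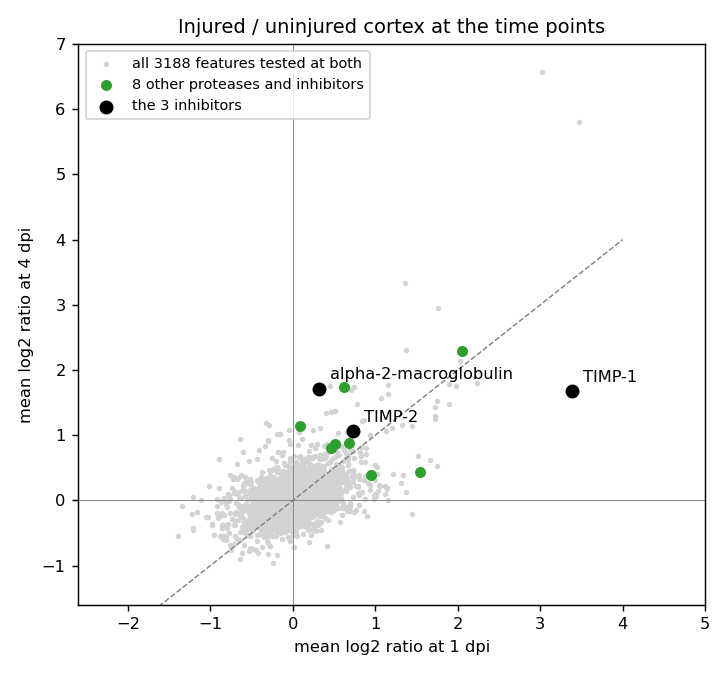
Mean log2 ratio of injured to uninjured cortex at 1 dpi (x axis, 3 arrays) and 4 dpi (y axis, 4 arrays) for the 3188 features tested at both times (grey), with 8 other proteases and inhibitors in green and the 3 inhibitors in black; the dashed line marks equal means. TIMP-1 (3.38 and 1.68) lies below the line, and TIMP-2 (0.73 and 1.07) and alpha-2-macroglobulin (0.32 and 1.72) lie above it.

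The order of the inhibitors was then read within each array, where all clones share the animal, the dyes and the normalisation. These are ratios, so the order is one of responses to injury and not of transcript levels. On all 3 arrays of 1 dpi the order from high to low was TIMP-1, TIMP-2, alpha-2-macroglobulin. On replicates 2, 3 and 4 of 4 dpi it was TIMP-1, alpha-2-macroglobulin, TIMP-2, and on replicate 1 it was alpha-2-macroglobulin, TIMP-2, TIMP-1.

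TIMP-2 and alpha-2-macroglobulin exchanged places between the time points. Alpha-2-macroglobulin minus TIMP-2 was -0.10, -0.35 and -0.78 on replicates 1 to 3 of 1 dpi, and 0.20, 0.89, 0.51 and 1.00 on replicates 1 to 4 of 4 dpi. It was below 0 on every array of 1 dpi and above 0 on every array of 4 dpi, although replicate 1 of each time point was close to 0. The means were -0.41 ± 0.35 (SD, n = 3) and 0.65 ± 0.37 (SD, n = 4), a change of 1.06 (exact permutation p = 0.0286, the smallest this design allows; 0.0429 after Benjamini-Hochberg adjustment over the 3 pairs). Within a time point the order of this pair could not pass a test, since sign flips of 3 arrays cannot give an exact p below 0.25 and those of 4 arrays none below 0.125, which were the values obtained.

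The lead of TIMP-1 over alpha-2-macroglobulin was nearly the same in the 3 animals of 1 dpi, at 3.03, 3.08 and 3.09. At 4 dpi it was -1.70, 0.57, 0.43 and 0.54 on replicates 1 to 4. Replicate 1 reversed the order, and the other 3 arrays again lay close together. The means were 3.06 ± 0.03 (SD, n = 3) and -0.04 ± 1.11 (SD, n = 4), a change of -3.10 (exact permutation p = 0.0286; 0.0429 over the 3 pairs). Without replicate 1 of 4 dpi the change was -2.55, and the remaining 3 against 3 arrays cannot reach 0.05 (smallest exact p = 0.1).

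TIMP-1 minus TIMP-2 was 2.93, 2.73 and 2.30 at 1 dpi, and -1.51, 1.45, 0.94 and 1.55 on replicates 1 to 4 of 4 dpi. Again the arrays of the time points did not overlap, and the sign turned on replicate 1 of 4 dpi. The change of the mean, from 2.65 ± 0.32 (SD, n = 3) to 0.61 ± 1.44 (SD, n = 4), was -2.04 and did not pass (exact permutation p = 0.0571, also after adjustment). Without replicate 1 of 4 dpi it was -1.34. For each of the 3 pairs the arrays of 1 and 4 dpi did not overlap, which held for 20.1% of all pairs of features with a value on 7 arrays. The changes kept their sign within Cy5 and within Cy3 for all 3 pairs.

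**Figure D3:**
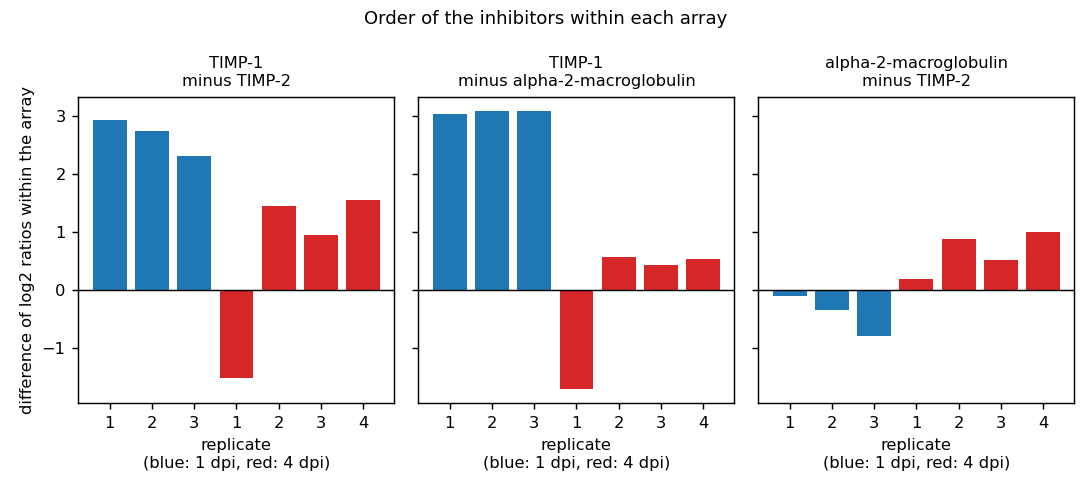
Difference of log2 ratios between 2 inhibitor clones on the same array (y axis) for each replicate of 1 dpi (blue) and 4 dpi (red), with 1 panel per pair. The lead of TIMP-1 over alpha-2-macroglobulin is 3.03 to 3.09 at 1 dpi and 0.43 to 0.57 on replicates 2 to 4 of 4 dpi, both panels with TIMP-1 turn negative on replicate 1 of 4 dpi, and alpha-2-macroglobulin minus TIMP-2 is negative on the 3 arrays of 1 dpi and positive on the 4 arrays of 4 dpi.

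The low TIMP-1 value on replicate 1 of 4 dpi was set against other features of that array. Of 2269 features with a value on all 4 arrays of 4 dpi, 25 had a log2 ratio above 1 on each of the other 3 arrays, and 3 of these were below 0 on replicate 1. They were TIMP-1 (-0.51), the contrapsin-like protease inhibitor related protein CPI-26, a serpin (-0.19), and the unnamed clone RNABP81 (-0.12). The median of the 25 features on replicate 1 was 0.88. When replicate 2, 3 or 4 was examined in this way, 13, 13 and 11 features were above 1 on the other arrays, 0 of them was below 0, and their medians on the array examined were 1.72, 1.83 and 2.10. These medians are of different sets of features, each chosen by the values on the other 3 arrays. The sets for replicates 2 to 4 required a value above 1 on replicate 1, so the counts and medians do not rank the arrays. Macrophage and microglia markers averaged 0.75 on replicate 1 and 1.27, 1.52 and 1.49 on replicates 2 to 4, over 3 clones with a value on all 7 arrays. The clones did not move alike, since the class III Fc gamma receptor was at 0.05 on replicate 1 and 1.51 to 1.74 on the others, while macrophage expressed gene 1 was at 0.97, above replicates 2 and 4 (0.57 and 0.85). The 4 fibroblast markers averaged 0.98 on replicate 1 and 1.08 to 1.29 on the others.

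Other protease inhibitors and proteases were examined as a list, which held no matrix metalloproteinase, the enzymes that TIMPs bind. Of 11 clones tested at 1 dpi, 6 were called upregulated and 0 downregulated, with a median of the means of 0.77. At 4 dpi 6 of 8 tested were called upregulated and 0 downregulated, with a median of 0.88, and without replicate 2 or replicate 3 the count of upregulated clones was 3. Over all features tested, 3.90% were called upregulated and 1.51% downregulated at 1 dpi, 2.63% and 0.376% at 4 dpi, and the medians were 0.01 and -0.01. The list was taken from clones that the study had listed as regulated on these samples, so its direction is not independent evidence. Tissue factor pathway inhibitor and ER-60 protease were added to it from outside the study's section of proteases and inhibitors. ER-60 was counted as a protease under its listed name.

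Among the inhibitors of this list, CPI-26 was also below 0 on the array in which TIMP-1 was. Its log2 ratio was 1.33 and 2.78 on replicates 1 and 3 of 1 dpi, with no value on replicate 2, and -0.19, 3.50, 2.56 and 3.28 on replicates 1 to 4 of 4 dpi. It passed the test for upregulation at 1 dpi (mean 2.06, limma adjusted p = 0.00143) and 4 dpi (2.29 ± 1.70, SD, n = 4; limma adjusted p = 0.0180). The pancreatic secretory trypsin inhibitor type II, a small inhibitor of serine proteases, was at 0.61, 0.47 and 0.79 at 1 dpi and at 0.45, 2.12, 2.30 and 2.10 at 4 dpi. Replicate 1 of 4 dpi was just below the arrays of 1 dpi, and the other 3 arrays of 4 dpi were above them. This inhibitor was called upregulated at 4 dpi (mean 1.74 ± 0.86, SD, n = 4; limma adjusted p = 0.00334), not at 1 dpi (mean 0.63, below the limit of 0.7). Tissue factor pathway inhibitor, which blocks the start of coagulation, was called upregulated at 1 dpi (mean 0.77, limma adjusted p = 0.00224) and had a value on 1 array of 4 dpi, -0.80 on replicate 1.

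Of the 8 proteases, 4 were called upregulated at 1 dpi, beside 3.90% of all features. These were tissue plasminogen activator (mean 1.54), which converts plasminogen to plasmin, endothelin-converting enzyme (1.08), carboxypeptidase D (0.94) and the collagen-degrading cathepsin K (0.85). At 4 dpi, with 2.63% of all features called, 4 of 6 tested proteases were upregulated, namely the lysosomal proteases cathepsin D (1.15) and cathepsin Y (0.89), myelencephalon specific protease (0.87), a serine protease of oligodendrocytes, and ER-60 protease (0.80). Of the 8 clones of the list tested for the difference between the time points, where 3.48% of all features were called higher and 1.51% lower at 4 dpi, cathepsin D was higher at 4 dpi by 1.06 (limma adjusted p = 0.00583) and tissue plasminogen activator was lower, with a difference of -1.11 (limma adjusted p = 0.0173). Tissue plasminogen activator was at 1.64, 1.60 and 1.39 at 1 dpi and at -0.27, 0.94, 0.62 and 0.44 on replicates 1 to 4 of 4 dpi. As for TIMP-1, every array of 4 dpi was below those of 1 dpi. This held for 7.26% of the features with a value on all 7 arrays. Replicate 1 was the lowest array of 4 dpi here and for carboxypeptidase D (0.05), cathepsin Y (0.52) and endothelin-converting enzyme (0.29, of 2 values). It was the highest for cathepsin D (1.40), ER-60 protease (1.15) and cathepsin K (1.65, of 2 values). Myelencephalon specific protease (0.83) was between the other arrays there.

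Of the transcription factors known to act on the promoters of Timp1 or A2m, 5 clones were used, and 5 of 5 were called upregulated at 1 dpi, against 3.90% of all features. Their names too came from the study's lists of genes regulated on these samples, so this count is not independent evidence. The means were 1.72 for C/EBP delta, 1.66 for c-fos, 1.51 for Stat3, 1.16 for nuclear factor kappa B and 1.14 for c-jun. At 4 dpi 3 of these had enough values, and nuclear factor kappa B was called upregulated (mean 1.77), with 1.30, 1.51, 2.25 and 2.03 on replicates 1 to 4. The AP-1 subunit c-jun was lower at 4 dpi, with a difference of -0.94 (limma adjusted p = 0.0364). On replicate 1 of 4 dpi, Stat3 was at -0.38, C/EBP delta at -0.61, c-fos at -0.95 and c-jun at -0.18, and on replicate 2 the same clones were at 1.29, 1.40, 2.00 and 0.48. Replicate 3 had values for c-fos (0.82) and c-jun (0.29), which were lower than on replicate 2 and above replicate 1. The part of these factors in the values of the inhibitors was not tested.

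**Figure D4:**
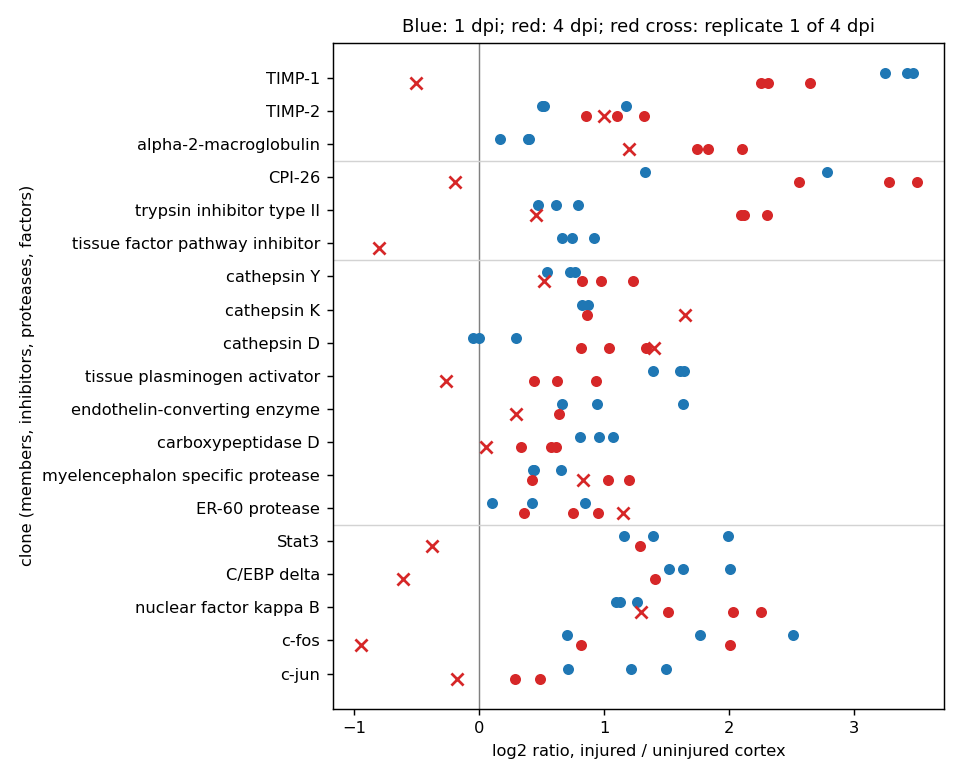
Log2 ratio of injured to uninjured cortex (x axis) for each clone (y axis; from top, the 3 inhibitors, 3 other inhibitors, 8 proteases and 5 transcription factors), with arrays of 1 dpi in blue, arrays of 4 dpi in red and replicate 1 of 4 dpi as a red cross. The cross lies below 0 for TIMP-1 (-0.51), CPI-26 (-0.19), tissue plasminogen activator (-0.27), tissue factor pathway inhibitor (-0.80), Stat3, C/EBP delta, c-fos and c-jun, and at 1.00 and 1.20 for TIMP-2 and alpha-2-macroglobulin. It is the highest array of 4 dpi for cathepsin D (1.40), ER-60 protease (1.15) and cathepsin K (1.65, of 2 values).

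Marker clones of other cells in the dissected cortex also differed between the sides and the time points. In pieces of tissue, a change in the number of cells of a type and a change in the RNA per cell cannot be told apart. The marker clones were also named from the lists of genes regulated on these samples, so their counts follow in part from that choice and are to be read beside the shares over all features, 3.90% upregulated at 1 dpi, 2.63% at 4 dpi and 3.48% higher at 4 dpi, and 1.51% downregulated at 1 dpi and 0.376% at 4 dpi. The macrophage and microglia markers were C1q beta, C1q C, class III Fc gamma receptor and macrophage expressed gene 1. Upregulated calls were given to 3 of 4 macrophage and microglia markers at 1 dpi and to 4 of 4 at 4 dpi, and the average over the 3 with a value on all arrays was 0.54 to 0.81 on the arrays of 1 dpi and 0.75 to 1.52 on those of 4 dpi. As fibroblast markers, collagen I alpha 1, collagen III alpha 1, fibronectin and osteonectin were used. Of 4 fibroblast markers, 0 were called at 1 dpi and 4 were upregulated at 4 dpi, with averages of -0.33 to 0.24 and of 0.98 to 1.29. All 4 fibroblast markers and 2 of the 4 macrophage and microglia markers were called higher at 4 dpi than at 1 dpi, as alpha-2-macroglobulin was. The neuronal markers were GABA-A receptor delta, CDCrel-1A, brain-enriched guanylate kinase-associated protein 1 and N-copine. Of 4 neuronal markers, 2 were called downregulated at 1 dpi, and 2 of 3 tested at 4 dpi. As for plasma proteins, albumin was called downregulated at 1 dpi (mean -1.23) and had 2 values at 4 dpi, while transferrin was not called at 1 dpi (mean 0.27) and was upregulated at 4 dpi (mean 0.81). The part of these cells in the values of the inhibitors was not tested. No astrocyte marker was in the list.

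Finally, the features with the most similar values were listed for each inhibitor by the root mean square difference of log2 ratio over the 7 arrays, among 2189 other features. For TIMP-1 the named ones among the nearest 5 were FYN binding protein at 1.13, the S-100 related protein at 1.13 and annexin II at 1.26. TIMP-2 lay nearest to annexin III at 0.21, with fatty acid binding protein 5 at 0.27 and cathepsin Y at 0.28 also among its nearest 5. Alpha-2-macroglobulin lay nearest to fibronectin at 0.23 and the C1q C chain at 0.26, which are among the fibroblast and the macrophage and microglia markers above. TRAM1 at 0.37 and the pancreatic secretory trypsin inhibitor type II at 0.42 were also among its nearest 5. The other clones among the nearest 5 had no listed name. Alpha-2-macroglobulin and TIMP-2 differed by 0.64 in this measure, and TIMP-1 differed from TIMP-2 by 2.03 and from alpha-2-macroglobulin by 2.13. Without replicate 1 of 4 dpi, an unnamed clone was nearest to TIMP-1 at 0.97, and annexin III (0.21) and fibronectin (0.23) were again nearest to TIMP-2 and alpha-2-macroglobulin. The measure is a description with no test, and the features compared share the animal and the normalisation of each array.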

How the data were processed

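Per the study's methods, the authors background-corrected the spots (local background, GenePix Pro), filtered out those lacking signal at 2 times background, turned the dye-swapped arrays and applied Lowess normalisation to each array in R (SMA package). The deposited values are log2 ratios of injured to uninjured cortex. Without spot intensities, which were not used here, the number of arrays limits the precision.

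Means were tested against 0 with limma 3.58.1 (R 4.3.3) where 2 of 3 or 3 of 4 arrays had a value, with calls at adjusted p values up to 0.02 and means beyond 0.7 on the log2 scale, and up to 0.05 for differences between times. Pairs were compared within arrays with SciPy 1.17.1. Simulated features changed by 1.5 were recovered in 81.5% of cases at 1 dpi (4952 features), 98.5% at 4 dpi (3191) and 98% for the difference (3188). Alternatives were SAM, a dye term, other fits, filters and scalings, the replicate number as a block and each array left out.

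Clone names came from the study's lists of regulated genes, with 238 of 253 listed clones used. Names whose values differed from the listed ones (cystatin beta, cathepsins B and L, calpain 2) or whose IDs were not matched (cystatin C, neuroserpin) were not used. The positions of A2m and of the TIMP genes were looked up in RefSeq by gene symbol. The text names the 3 inhibitors, the listed proteases and inhibitors, 5 transcription factors and 14 cell markers. Of the 5 features most like each inhibitor, it names those with a listed name. The members and lists were chosen with earlier results of these data known.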

Additional observations from a re-analysis of the deposited data

Results flagged for a closer look

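TIMP-1 on replicate 1 of 4 dpi, at -0.51, lay far from the other 3 arrays, the gap to the nearest being 0.876 of the range of the group. The pancreatic secretory trypsin inhibitor type II on the same array, at 0.45, had a gap of 0.888 of the range. In all, 12 groups of 4 arrays were examined in this way and 2 were picked out, where chance picks about 5%. The cell markers, some of which also differed between the time points as given above, were not part of this listing. Among the inhibitors, proteases and transcription factors, values that differed between the time points by their own test were those of alpha-2-macroglobulin (1.40), cathepsin D (1.06), tissue plasminogen activator (-1.11) and c-jun (-0.94), each as 4 dpi minus 1 dpi. The within-array differences of TIMP-1 minus alpha-2-macroglobulin (-3.10) and of alpha-2-macroglobulin minus TIMP-2 (1.06) also differed.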

How the results depend on the processing

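Of 173 alternative values for 14 results, 0 reversed and 149 kept their direction and their side of the test's threshold, stayed within 1.5 times for a count, or, for medians and dye-balanced means with no test, moved by less than 1 SD. The median of TIMP-2 at 1 dpi, 0.51, was among the latter and lay below the limit of 0.7. For TIMP-1 at 4 dpi the mean of 1.68 passed by SAM (q = 0.0137), with a dye term (limma adjusted p = 0.00842), with both time points in 1 fit (0.00941) and at a limit of 0.05 (0.0324). It did not pass with centred arrays (0.0332), scaled arrays (1.82, adjusted p = 0.0321), a value on every array (0.0356) or robust eBayes (0.203). Leaving out 1 array gave 1.35 to 2.40, and it passed without replicate 1 but not without replicate 2, 3 or 4 (limma adjusted p = 0.160, 0.105 and 0.0555). The TIMP-1 difference was -2.03 to -0.98 and passed without that array. TIMP-2 at 1 dpi was 0.51 to 0.84 and lost its call without replicate 2 or 3. The change of TIMP-1 minus TIMP-2, which did not pass, was -2.36 to -1.34, the smallest without replicate 1 of 4 dpi. The change of TIMP-1 minus alpha-2-macroglobulin was -3.31 to -2.55 and that of alpha-2-macroglobulin minus TIMP-2 was 0.87 to 1.21. Neither passed with an array left out, where the exact permutation test cannot go below 0.1 (3 against 3 arrays) or 0.0667 (2 against 4). Upregulated clones of the protease list at 4 dpi numbered 3 to 5, with 3 without replicate 2 or replicate 3.

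Replicate numbers name different animals, and deviations of arrays with the same number correlated at -0.17, 0.01 and -0.27. The arrays numbered 1 and 3 carried opposite dyes at the time points and those numbered 2 the same dye. These values thus do not show whether arrays with the same number share anything else. With the replicate block the differences were -2.03 for TIMP-1 (limma adjusted p = 0.0884), 0.33 for TIMP-2 (0.415) and 1.27 for alpha-2-macroglobulin (0.0256), and features that differed between the time points went from 159 to 30. That count was 73 at a limit of 0.02, 250 with array weights and 37 to 195 with an array left out. At 1 dpi 193 features were called upregulated, and 121 without replicate 2. At 4 dpi 12 were called downregulated, and 3 without replicate 3 and 21 with scaled arrays. With values on 3 and 4 arrays, small differences such as that of TIMP-2 could not be resolved.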
